A study of Homo sapiens with 4 samples.

Results

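The 31 genes described here act in the Fanconi anemia pathway and in homologous recombination, and they were taken by symbol from a table of 24934 gene rows, where each of the 31 stands on exactly 1 row. They were followed in HEK-293, a cell line of human embryonic kidney origin that carries adenoviral early genes, after transfection with siRNA at 10 nM. RNA was taken at 48 h. The siRNAs si4 and si5 are directed against ZSCAN5A, 1 siRNA, si1, is directed against ZSCAN5B, and a scrambled siRNA served as control. ZSCAN5A and ZSCAN5B are related zinc finger genes. One library was sequenced for each siRNA, 4 in all, so that si4 and si5 are different reagents for 1 gene and not repeats of 1 treatment, and a single control library stands under every comparison. No count below has a replicate check for si1, and errors for the ZSCAN5A siRNAs measure the spread between si4 and si5.

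Fanconi anemia proteins deal with crosslinks between the strands of DNA. A nuclear core complex attaches ubiquitin to the FANCD2-FANCI pair, nucleases held by SLX4 cut the DNA at the crosslink, and the broken arm is then repaired from the sister chromatid by homologous recombination. For that repair MRE11, RAD50 and NBN open the break with RBBP8 (CtIP), EXO1 and BLM resect it, and BRCA1, PALB2 and BRCA2 act next to start strand exchange, helped by RAD51C, XRCC2, XRCC3 and RAD54L. ATM, ATR and CHEK1 pass the damage signal on to the cell cycle. Many of these genes are transcribed most in S phase, when a sister chromatid is at hand, so that in a bulk library fewer cells in S phase and less RNA in each cell cannot be told apart.

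The siRNAs are shown first because each can also pair with other mRNAs through its seed, bases 2 to 8 of the guide strand. Their target sequences, from the study's supplementary table, are given on the mRNA strand, with the 7 bases that pair with the seed in capitals.

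si4: cgagaagaggtttACGTGTAa

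si5: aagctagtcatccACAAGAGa

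si1: acgtgtgcaataaATCATTTa

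Each target sequence matched the GRCh37 genome at 1 place, on the minus strand of chromosome 19. The si4 target lies at chr19:56733332-56733352 and the si5 target at chr19:56733307-56733327, both in exon 6, the last coding exon of ZSCAN5A. The si1 target lies at chr19:56701591-56701611, in exon 5, the last coding exon of ZSCAN5B. Levels are given as FPKM, fragments per kilobase of a transcript relative to all mapped fragments of a library. ZSCAN5A stood at 0.730 FPKM with si4, 0.713 FPKM with si5, 2.53 FPKM with si1, against 2.42 FPKM in the control, that is at 30.2% and 29.5% of the control with its own siRNAs. ZSCAN5B was near the limit of these libraries, with 6 fragments with si4, 17 with si5 and 16 with si1, beside 15 in the control. These numbers are not scaled to depth, which was greatest for si5. By FPKM, the si4 library held 36.6% of the control level and the si5 library 73.4%, and no counting interval is given for either. The si1 library held 105%, with an exact Clopper-Pearson 95% interval of 48.6% to 228% for counting error. The study also measured this knockdown by qRT-PCR and western blot, which were not analysed here. Since a lower level of ZSCAN5B was not seen in the si1 library, it is referred to as the library labelled ZSCAN5B knockdown. Every direction drawn from it carries this limit.

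Estimated depth was 53700000 fragments in the control and 54600000, 58600000 and 82900000 fragments with si1, si4 and si5. Markers known from HEK-293 were present, with VIM between 270 and 359 FPKM, NEFL between 37.0 and 45.2 FPKM and KRT8 between 148 and 199 FPKM, and PAX2 was low at 0.584 to 1.16 FPKM, while PTPRC, CD3E, HBB, ALB, INS and MYH6, which mark blood, liver, islet and heart cells, were at 0.0335 FPKM or less in every library. Of all genes tested, more lay over 1.5-fold below the control than above it, 404 against 88 with the ZSCAN5A siRNAs and 409 against 109 with si1.

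All 31 repair genes were expressed, and none differed from the control by more than 1.5-fold. With the mean of si4 and si5, 0 of the 31 were over 1.5-fold higher, where 0.677% of 12993 genes were, and 0 were over 1.5-fold lower, where 3.11% of genes were. In the library labelled ZSCAN5B knockdown, 0 were over 1.5-fold higher and 0 lower, beside 0.844% and 3.17% of 12921 genes. At a narrower limit of 25% above or 20% below the control, BRCA2 and FANCM were past it upward and SLX4 downward with the ZSCAN5A siRNAs, beside 5.14% and 13.4% of all genes. With si1, FANCA and SLX4 were past it downward, beside 12.8% of all genes, and 0 genes upward, beside 6.7% of all genes. limma, a linear model that shares the estimate of spread across genes, was fitted to all 4 libraries and called 0 of the 31 at a Benjamini-Hochberg adjusted p under 0.05 in either comparison, beside 0.0765% of 13078 genes in each. At an unadjusted p under 0.05 it called BRCA2 alone of the 31 for ZSCAN5A, beside 12.6% of all genes, and FANCA alone for si1, beside 10.6%. This fit had 1 residual degree of freedom, from the difference between si4 and si5. Its p-values, those for si1 included, thus measured no spread between repeats of si1 or of the control.

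The size of the differences was small for most of the 31 genes. Their median log2 ratio to the control was 0.0015 with the ZSCAN5A siRNAs and 0.017 with si1, against -0.020 and -0.0097 for all genes tested. Without the sign, the median size of the log2 ratio was 0.088 and 0.11 for the repair genes and 0.16 in both comparisons for all genes. Of the repair genes, 16 were above the control and 15 below it in each comparison, and both comparisons rest on the same control library. Over all genes tested, 46.7% were above the control with the ZSCAN5A siRNAs and 48.5% with si1. These shares are the ones to set beside every count of genes above or below the control given below. Over the 4 libraries the highest value of a repair gene was a median 1.13 times the lowest (quartiles 1.07 and 1.24, largest 1.43), against 1.22 times for all genes and 1.20 times for the 10447 genes whose control level lay within the range of the 31. In all, 11 of the 31 (35.5%) kept their 4 values within 1.1-fold, as 12.7% of all genes did. The latter share is over 12983 genes and was not matched for level or transcript length. These 11 were FANCF, FANCI, FANCL, BRIP1, RAD51C, RAD51AP1, RAD54L, MRE11A, EXO1, BLM and ATM.

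**Figure D1:**
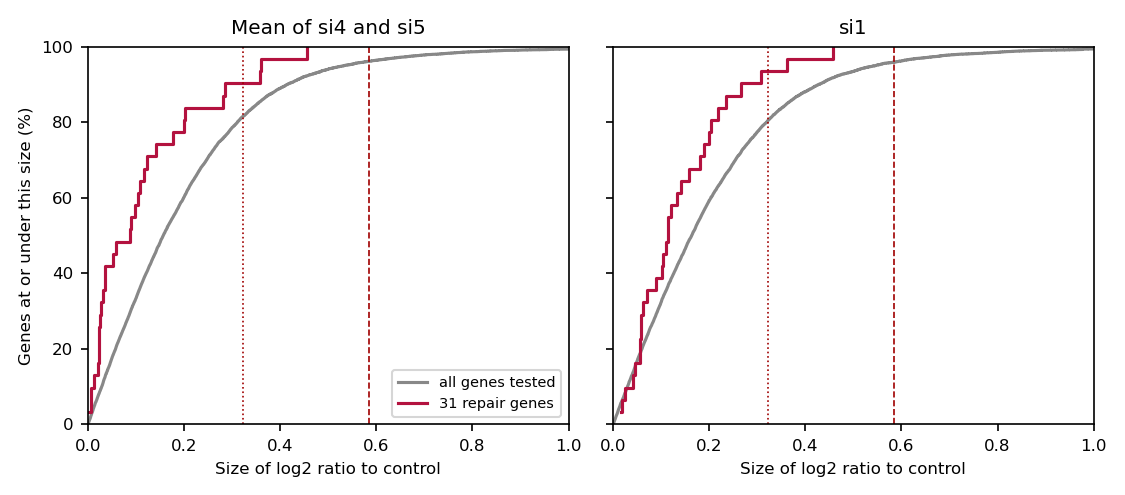
Share of genes, in percent, at or under each size of the log2 ratio to the control, for the 31 repair genes and for all genes tested, with the ZSCAN5A siRNAs on the left and si1 on the right. The dotted and dashed lines mark the narrower limit and 1.5-fold; the repair genes end before the dashed line in both panels, and their median sizes are 0.088 and 0.11.

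Levels in the control ranged from 2.27 FPKM for BRCA2 to 77.1 FPKM for RAD51C, with a median of 12.7 FPKM, against 9.95 FPKM over the 13078 genes that reached 1 FPKM in some library. Below 5 FPKM stood BRCA2, FANCM, SLX4, FANCB, ATR and ATM, and above 30 FPKM stood EXO1, FANCL, RAD51AP1, FANCI and RAD51C. FPKM is scaled to transcript length, but the annotation behind the lengths is not given, so levels of different genes can be set side by side only roughly. The fragments behind a control value ranged from about 493 for FANCB to about 17720 for FANCI. Intervals given below for a ratio of 2 libraries are Clopper-Pearson 95% intervals on such fragment numbers and cover counting error only. The fragment numbers are not counts but were estimated from FPKM, depth and the length of the annotated transcript. Where that transcript runs past the listed locus, as for XRCC2, BARD1, RAD51C and MRE11A, numbers may be too high and intervals too narrow.

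**Figure D2:**
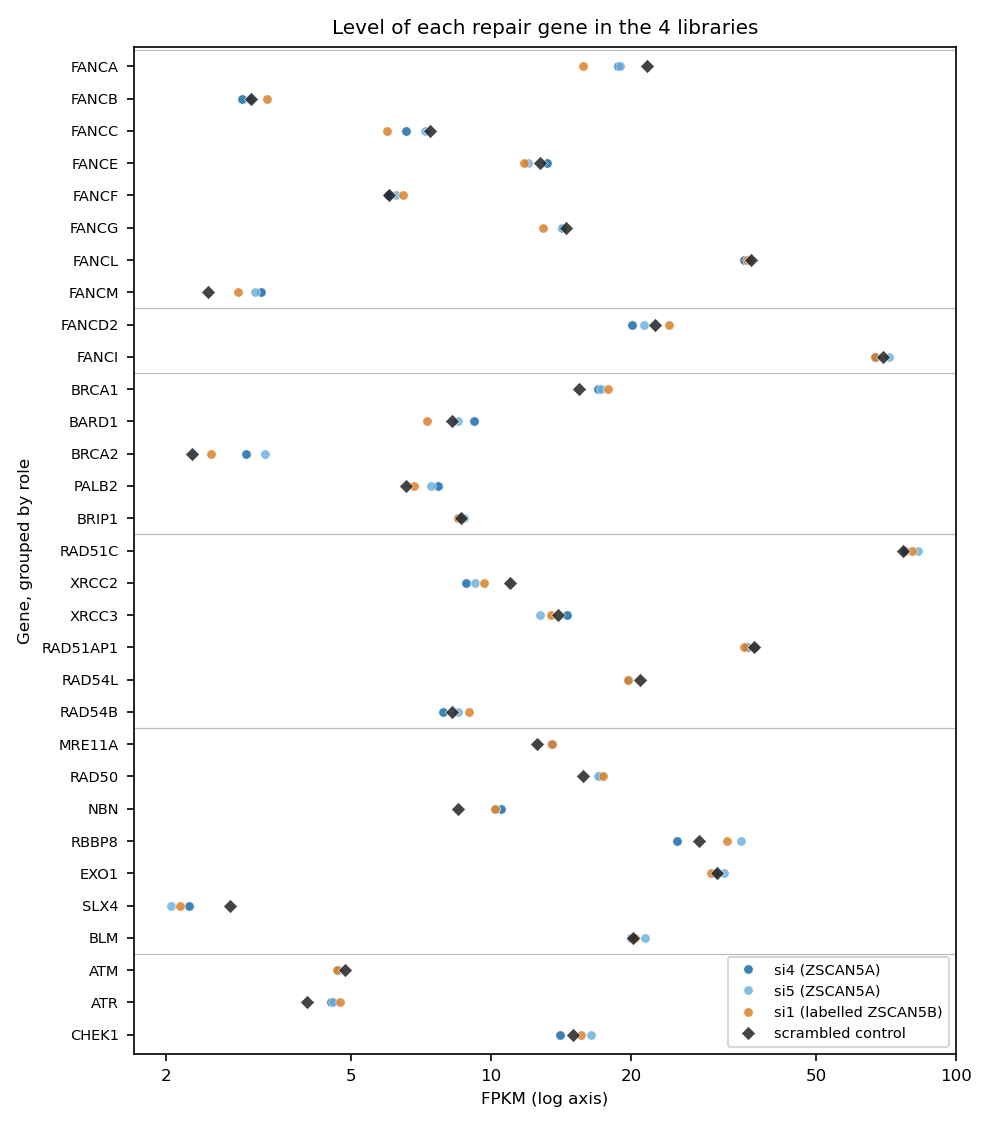
FPKM of each of the 31 genes on a log axis, in the si4, si5, si1 and control libraries, with lines between groups of genes by role. The 4 points of a gene lie close together beside the span from 2.27 FPKM for BRCA2 to 77.1 FPKM for RAD51C, and FANCA, FANCM, BRCA2, RBBP8 and SLX4 are spread most.

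The Fanconi core complex is the ubiquitin ligase machine of the pathway, and 8 of the 31 genes belong to it or anchor it. FANCA, which forms a scaffold subcomplex with FANCG, lies on chromosome 16 at 89803959 to 89883065 of hg19, on the minus strand. It measured 18.8 FPKM with si4, 18.9 with si5 and 15.8 with si1, beside 21.7 in the control. The control was thus highest and si1 lowest, with ratios of 0.867 (0.836 to 0.898) for si4, 0.873 (0.845 to 0.902) for si5 and 0.728 (0.701 to 0.756) for si1. FANCG itself stood at 14.2, 14.2, 13.0 and 14.5 FPKM in the same order, so that only the si1 value lay apart, at 0.896 of the control. FANCC, which works with FANCE and FANCF in another subcomplex, gave 6.58 FPKM with si4, 7.19 with si5 and 5.98 with si1, beside 7.40 in the control. Its ratio was 0.808 (0.754 to 0.865) with si1, and si5 was within counting error of the control. FANCE, which contacts FANCD2, gave 13.2, 12.0, 11.8 and 12.7 FPKM, with the control between the siRNA libraries. FANCF, the adaptor between subcomplexes, gave 6.01, 6.23, 6.47 and 6.02 FPKM.

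FANCL, the catalytic E3 ligase, was among the steadiest of the 31, at 34.9 FPKM with si4, 35.9 with si5 and 35.6 with si1, beside 36.2 in the control. FANCB, its X-linked partner, was low, at 2.91, 3.03, 3.29 and 3.04 FPKM, and all 3 of its intervals included 1. FANCM, the DNA translocase that brings the complex to chromatin, was the 1 core gene above the control with all 3 siRNAs. It lies on chromosome 14 at 45605136 to 45670093 and measured 3.20 FPKM with si4, 3.11 with si5 and 2.86 with si1 against 2.46 in the control, the lowest of its 4 values. Its ratios were 1.30 (1.20 to 1.42) for si4, 1.27 (1.17 to 1.37) for si5 and 1.16 (1.07 to 1.27) for si1. The median log2 ratio of the 8 core genes was -0.027 with the ZSCAN5A siRNAs and -0.070 with si1, with 2 and 3 of the 8 above the control.

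The FANCD2-FANCI pair is the substrate of the core complex and marks activated foci when it carries ubiquitin. FANCD2 gave 20.1 FPKM with si4, 21.4 with si5 and 24.2 with si1, beside 22.5 in the control, so that both ZSCAN5A siRNA libraries lay below the control and si1 above it. The mean log2 ratio of the ZSCAN5A siRNAs was -0.12, and that of si1 was 0.10. FANCI, the more abundant partner, gave 67.1, 71.7, 67.0 and 69.7 FPKM and stayed within 1.07-fold over all 4 libraries.

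BRCA2, a mediator that binds resected DNA, had the largest positive log2 ratio of the 31 genes with the ZSCAN5A siRNAs. It lies on chromosome 13 at 32889617 to 32973809, has an 11954-base transcript, and measured 2.98 FPKM with si4, 3.26 with si5 and 2.49 with si1, beside 2.27 in the control. Both ZSCAN5A siRNA libraries were above the other 2, with ratios of 1.31 (1.22 to 1.40) and 1.43 (1.35 to 1.53), while si1 was at 1.10 (1.02 to 1.18). The mean log2 ratio of si4 and si5 was 0.46 with an SD of 0.093 between the 2 siRNAs, and its limma unadjusted p was 0.038 with an adjusted p of 0.387. PALB2, the bridge between BRCA1 and BRCA2, measured 7.69, 7.41 and 6.84 FPKM with si4, si5 and si1 and 6.57 FPKM in the control. Its log2 ratio was 0.20 with the ZSCAN5A siRNAs and 0.057 with si1, where the counting interval included 1.

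BRCA1, a ubiquitin ligase that promotes resection, was lowest in the control as well, at 16.96 FPKM with si4, 17.2 with si5 and 17.8 with si1 against 15.5 in the control. BARD1, its obligate RING partner, gave 9.19, 8.48 and 7.28 FPKM against 8.26, so that the 2 partners stood on opposite sides of the control with si1, with log2 ratios of 0.20 and -0.18. BRIP1, a helicase that binds BRCA1, was the steadiest of the 31 genes, at 8.51, 8.75, 8.51 and 8.62 FPKM. All 5 genes of this group had a mean above the control with the ZSCAN5A siRNAs, BRIP1 by a log2 ratio of 0.0015 only, with a median log2 ratio of 0.14, and 3 of the 5 were above it with si1.

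**Figure D3:**
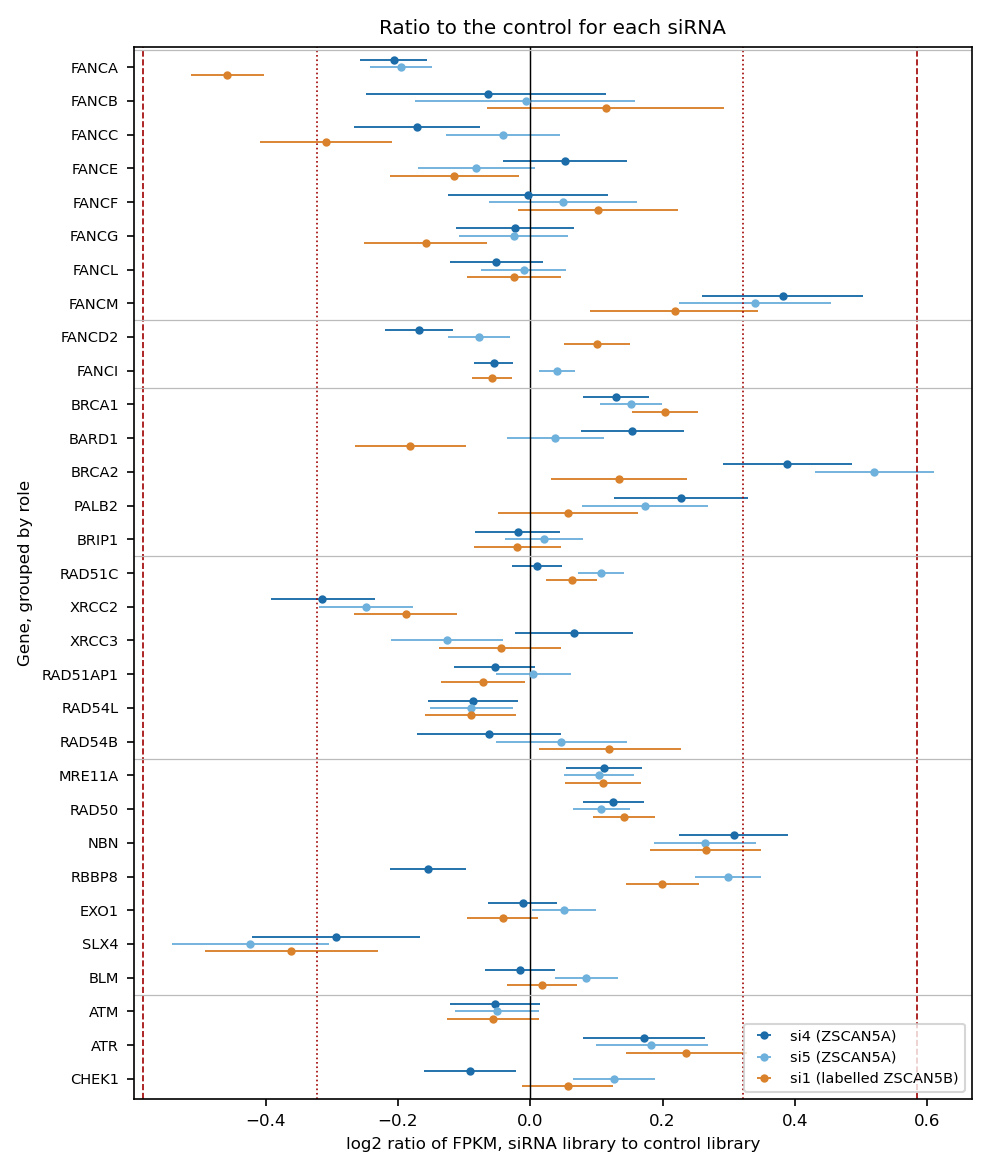
Log2 ratio of FPKM to the control for each of the 31 genes and each siRNA, with 95% counting intervals as bars, and dotted lines 25% above and 20% below the control and dashed lines at 1.5-fold. Every point lies inside the dashed lines; the most positive is BRCA2 with si5, at 0.52, and the most negative is FANCA with si1, at -0.46.

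XRCC2 had the lowest log2 ratio with the ZSCAN5A siRNAs among the 6 accessory factors of strand exchange. It lies on the minus strand of chromosome 7 at 152343587 to 152373250 and measured 8.83 FPKM with si4, 9.24 with si5 and 9.64 with si1, beside 11.0 in the control, the highest of its 4 values. The ratios were 0.804 (0.762 to 0.850), 0.842 (0.801 to 0.885) and 0.878 (0.831 to 0.927). RAD51C, which forms separate complexes with XRCC2 and XRCC3 and is the most abundant of the 31 genes, gave 77.6, 83.0, 80.5 and 77.1 FPKM. XRCC3, its partner, gave 14.6 FPKM with si4, 12.8 with si5 and 13.5 with si1, beside 13.9 in the control, so that si4 and si5 lay on opposite sides of the control. RAD54L, a motor protein that drives strand exchange, gave 19.7 FPKM with each of the 3 siRNAs and 20.9 FPKM in the control. RAD54B, a related motor, gave 7.88, 8.51, 8.95 and 8.24 FPKM, and RAD51AP1, which stimulates pairing of the strands, gave 35.5, 36.9, 35.0 and 36.8 FPKM.

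The seed matches of the siRNAs were looked up in the 31 genes for the same reason that the targets are printed above. The 7-base match of si4 was found in the 3′ UTR of 403 of 11996 genes (3.36%) of the GENCODE annotation lifted to GRCh37, and XRCC2 was the 1 gene of the 31 that held it. The match of si5 was found in 12.0% of genes and in 5 of the 31 (XRCC2, BRIP1, MRE11A, NBN and ATM), and that of si1 in 23.4% of genes and in 7 of the 31 (FANCM, FANCD2, BARD1, RAD51C, MRE11A, RAD50 and ATM). For 3 sites the sequence is shown with the match in capitals, those of XRCC2 because both ZSCAN5A siRNAs have one there and that of BRIP1 because its level with si5 was 1.01 times the control.

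XRCC2, si4 match: ttaacatcACGTGTAggaatact

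XRCC2, si5 match: aatcaagaACAAGAGtgcctgct

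BRIP1, si5 match: ggtagaagACAAGAGacttgggc

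The XRCC2 sites lie at chr7:152341950-152341972 and chr7:152342747-152342769 of GRCh37, in the 3′ UTR in exon 3 of 3, and the BRIP1 site lies at chr17:59758857-59758879, in the 3′ UTR in exon 20 of 20, all on the minus strand. Both XRCC2 sites are in the longer 3′ UTR of GENCODE, beyond the end of the XRCC2 locus that the table lists. Over all genes, the median log2 ratio with si4 was -0.29 where the si4 match was present and -0.0047 where it was not. The same medians were -0.10 and -0.014 for si5, and -0.056 and 0.010 for si1. XRCC2 was also below the control with si1, which has no match in its 3′ UTR. With si5, the log2 ratios of the other 4 genes with a match were 0.021 for BRIP1, 0.10 for MRE11A, 0.26 for NBN and -0.050 for ATM. The si5 match of MRE11A also lies beyond the listed locus, as do the si1 matches of BARD1, RAD51C and MRE11A. The NBN match was not placed on the genome. A match is a description of the sequence, and its part in any of these levels was not tested.

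MRE11A, RAD50 and NBN form 1 complex, which senses and trims DNA ends, and each of the 3 was lowest in the control. NBN, its regulatory subunit, gave 10.5 FPKM with si4, 10.2 with si5 and 10.2 with si1 against 8.50 in the control, with ratios of 1.24 (1.17 to 1.31), 1.20 (1.14 to 1.27) and 1.20 (1.13 to 1.27). RAD50, the ATPase, gave 17.2, 16.98 and 17.4 FPKM against 15.8, and MRE11A, the nuclease, gave 13.6, 13.5 and 13.5 FPKM against 12.5. Their ratios lay between 1.07 and 1.10. The control library was the lowest of the 4 for 9 of the 31 genes (29.0%), beside 30.1% of all genes, and the highest for 8 of the 31 (25.8%), beside 36.2%, so that neither share exceeded that of the table as a whole. The 9 were FANCM, BRCA1, BRCA2, PALB2, RAD51C, MRE11A, RAD50, NBN and ATR, and the 8 were FANCA, FANCC, FANCG, FANCL, XRCC2, RAD54L, SLX4 and ATM.

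RBBP8 (CtIP), which starts resection with MRE11, was the gene on which the ZSCAN5A siRNAs differed most. It gave 25.1 FPKM with si4, 34.4 with si5 and 32.1 with si1, beside 28.0 in the control. The si4 value was thus the lowest of the 4 and the si5 value the highest, with a ratio of si4 to si5 of 0.730 (0.705 to 0.756), and the mean of 29.8 FPKM describes neither library. CHEK1, described below, was the next most unequal pair, with a ratio of 0.860 (0.824 to 0.897). EXO1, a resection exonuclease, gave 30.3, 31.7, 29.7 and 30.6 FPKM, and BLM, the helicase that resects and dissolves junctions, gave 19.96, 21.4, 20.4 and 20.2 FPKM.

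SLX4, the platform for the structure-specific nucleases, was the 1 gene of the 31 past the narrower limit in both comparisons. It lies on the minus strand of chromosome 16 at 3631184 to 3661585 and measured 2.24 FPKM with si4, 2.05 with si5 and 2.14 with si1, beside 2.75 in the control. All 3 siRNA libraries were below the control, with ratios of 0.816 (0.747 to 0.891), 0.746 (0.687 to 0.810) and 0.779 (0.711 to 0.853). These 3 ratios share 1 control value, which rests on about 1079 fragments.

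Of the checkpoint kinases, ATR, which answers to stalled forks, gave 4.53 FPKM with si4, 4.57 with si5 and 4.74 with si1 against 4.02 in the control, so that its control value was the lowest. ATM, which answers to double-strand breaks, gave 4.68, 4.68, 4.66 and 4.85 FPKM, a 1.04-fold range. CHEK1, the kinase downstream of ATR, gave 14.1 FPKM with si4, 16.4 with si5 and 15.6 with si1, beside 15.0 in the control, with the control between si4 and the other 2.

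GC content of the transcripts, which the choice of the 31 genes did not use, moved with their log2 ratios. The 7 genes above 50% GC (FANCA, FANCC, FANCE, FANCG, XRCC3, RAD54L and SLX4) were all below the control in both comparisons, whereas 8 of the other 24 were. For the mean of si4 and si5, FANCE, FANCG and XRCC3 were only just below it, at log2 ratios of -0.013, -0.024 and -0.026. With si4 alone, FANCE and XRCC3 were above the control, at ratios of 1.04 and 1.05. Over all genes above 50% GC, 58.4% were below the control with the ZSCAN5A siRNAs and 57.2% with si1, and at or below 50% GC the shares were 48.7% and 46.5%. Spearman's rho between GC content and log2 ratio over the 31 genes was -0.42 with the ZSCAN5A siRNAs and -0.50 with si1, and over all genes it was -0.16 and -0.15. These points share the same libraries. The split at 50% was chosen after the values were seen.

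Transcript length moved with the log2 ratio in the table as a whole, with medians from 0.17 in the shortest of 10 equal groups of genes to -0.13 in the longest for the ZSCAN5A siRNAs and from 0.17 to -0.15 for si1. The 31 genes did not follow this order, with Spearman's rho between length and log2 ratio of 0.28 and 0.20, against -0.33 and -0.34 over all genes. They have long and AT-rich transcripts, with a median of 4622 bases and 41.2% GC against 3310 bases and 48.2% for expressed genes. When the median of genes of like length and GC content was taken off, SLX4 went from -0.36 to -0.067 with the ZSCAN5A siRNAs and from -0.36 to -0.11 with si1. FANCA went from -0.20 to 0.011 and from -0.46 to -0.26. With the ZSCAN5A siRNAs the shift was smaller for BRCA2, from 0.46 to 0.44, FANCM, from 0.36 to 0.32, NBN, from 0.29 to 0.23, and XRCC2, from -0.28 to -0.27. Other genes moved away from 0. FANCL went from -0.030 to -0.16 with the ZSCAN5A siRNAs and from -0.024 to -0.21 with si1. RAD51AP1 went from -0.024 to -0.11 and from -0.071 to -0.21. After this correction 1 of the 31 genes, BRCA2, was past the narrower limit in either direction with the ZSCAN5A siRNAs, beside 13.3% of 12377 genes, and 0 were with si1, beside 14.5% of 12332 genes.

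**Figure D4:**
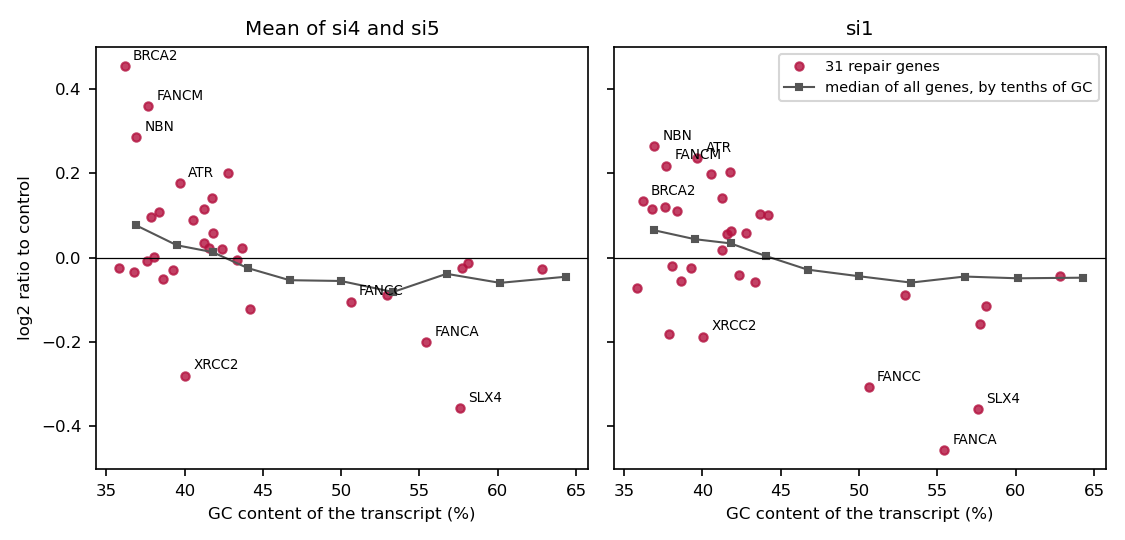
Log2 ratio to the control against the GC content of the transcript, in percent, for the 31 genes, with the median of all genes in 10 equal groups by GC content as a grey line, for the ZSCAN5A siRNAs on the left and si1 on the right. The 7 repair genes above 50% GC lie below 0 in both panels, with SLX4 and FANCA lowest.

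Other features of the 31 genes were read from annotation. RefSeq promoter windows of GRCh38.p14, from 250 bases before to 50 bases after a gene's start, were matched for 28 of the 31, and FANCI, NBN and RAD54B were not matched. E2F factors drive S phase genes, and the letters TTTCCCGC, TTTGGCGC, TTTCGCGC or TTTGCCGC, searched on both strands, were present in a window of 5 of the 28 (17.9%), against 6.92% of 9990 expressed genes and 3.99% of all 27305 genes. CCAAT was present in 13 of the 28 (46.4%), against 43.9% of expressed genes, and TTTGAA, the core of the cell cycle homology region, in 3 of the 28 (10.7%), against 13.6%. The 5 E2F-letter matches are shown on the strand of each gene, with the first match in capitals.

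FANCD2: gtcgggcctgGCGGGAAAgtcgaaaact

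XRCC2: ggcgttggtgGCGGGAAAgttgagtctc

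EXO1: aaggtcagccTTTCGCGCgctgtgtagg

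FANCC: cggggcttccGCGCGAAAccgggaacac

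FANCA: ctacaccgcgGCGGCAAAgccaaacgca

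On GRCh38.p14 these windows lie at chr3:10026425-10026452 on the plus strand for FANCD2, chr7:152676103-152676130 on the minus strand for XRCC2, chr1:241848198-241848225 on the plus strand for EXO1, chr9:95317864-95317891 on the minus strand for FANCC and chr16:89816802-89816829 on the minus strand for FANCA. A match of letters is not a binding site. The log2 ratios of these genes with the ZSCAN5A siRNAs were -0.12 for FANCD2, -0.28 for XRCC2, 0.020 for EXO1, -0.10 for FANCC and -0.20 for FANCA. With si1 they were 0.10, -0.19, -0.042, -0.31 and -0.46 in the same order. The part of these letters in the levels was not tested. In addition, 8 of the 31 genes (25.8%) were counted with a neighbour on the other strand that reads away from them and starts within 1000 bases. Of 11991 expressed coding genes, 13.3% were. Noncoding neighbours may be missing from these counts. In 6 of the 8 pairs both genes were tested. The pair lay on the same side of the control in 2 with the ZSCAN5A siRNAs, FANCB with MOSPD2 and PALB2 with DCTN5. It did so in 3 with si1, where MRE11A with ANKRD49 joined them. The same-side share of such pairs over the whole table is not given here. With the ZSCAN5A siRNAs, FANCB, XRCC3 and RAD51AP1 were at log2 ratios of -0.035, -0.026 and -0.024, so their side says little. ATM and NPAT, a histone gene regulator, have 429 bases between their starts. NPAT measured 5.37 FPKM with si4, 5.88 with si5 and 4.72 with si1, beside 4.47 in the control, above the control where ATM was just below it. MRE11A and ANKRD49, with 140 bases between their starts, had log2 ratios of 0.11 and -0.13 with the ZSCAN5A siRNAs and 0.11 and 0.089 with si1.

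The neighbouring repair pathways were read from lists chosen by function. Of 16 other Fanconi genes on 17 rows, 12 rows were above the control with the ZSCAN5A siRNAs and 9 with si1, with median log2 ratios of 0.050 and 0.028. EME2, a nuclease subunit, was the 1 gene past 1.5-fold, in the library labelled ZSCAN5B knockdown, at 1.14 FPKM with si4, 0.848 with si5 and 0.812 with si1, beside 1.30 in the control. STRA13 (CENPX), which binds DNA beside FANCM, was highest of this list in both comparisons, at 91.6, 85.96, 80.5 and 68.3 FPKM, and C17orf70 (FAAP100), a partner of FANCB and FANCL, was second lowest, with log2 ratios of -0.19 and -0.27. MAD2L2 (REV7) followed STRA13 with the ZSCAN5A siRNAs, at a log2 ratio of 0.19, and C1orf86 (FAAP20) did so with si1, also at 0.19.

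Of 22 expressed genes among the other recombination genes, 0 passed 1.5-fold, and the medians were 0.0043 and 0.0086. RAD51D, which works with XRCC2, was lowest with the ZSCAN5A siRNAs at a log2 ratio of -0.27 for the mean FPKM of si4 and si5. This mean joined 3.87 FPKM with si4 to 7.66 FPKM with si5, beside 7.20 with si1 and 6.97 in the control. RECQL5, a helicase, was next at -0.25, and RPA3, a subunit of the single-strand binding protein, and RAD51B, which works with RAD51C, were highest at 0.30 each. With si1, RAD52 and TOP3A were lowest at -0.21 each, and SHFM1 (DSS1), the small partner of BRCA2, and PARPBP were highest at 0.43 and 0.24.

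MDC1, the mediator that binds phosphorylated H2AX at breaks, was the 1 gene of 22 in damage signalling past 1.5-fold, and it was so in both comparisons. It measured 11.6 FPKM with si4, 12.1 with si5 and 12.0 with si1, beside 21.2 in the control. The 3 siRNA libraries lay together, all below the single control, with log2 ratios of -0.84 and -0.82, and 7 further rows of MDC1 on alternate haplotypes are listed at 0. HUS1, a clamp subunit, was next lowest with the ZSCAN5A siRNAs at -0.28 and CLSPN, which bridges ATR to CHEK1, with si1 at -0.39. RIF1, which restrains resection, was highest with the ZSCAN5A siRNAs at 0.56, with 18.0, 17.9, 14.3 and 12.2 FPKM, and UIMC1 (RAP80) followed at 0.22. With si1 both were at 0.23. The median of the 22 genes was 0.030 and 0.021.

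Non-homologous end joining and mismatch repair genes had 0 members past 1.5-fold, with medians of 0.037 and 0.11 for the ZSCAN5A siRNAs and 0.0061 and 0.11 for si1. Nucleotide excision repair had medians of -0.044 and 0.018, with ERCC5, the XPG nuclease, past 1.5-fold upward with si1, at 5.00 FPKM against 3.25 in the control.

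S phase genes, a list of 27 given because many of the 31 genes are cell cycle regulated, had medians of 0.010 with the ZSCAN5A siRNAs and -0.076 with si1, where 20 of the 27 were below the control. RRM2, the ribonucleotide reductase subunit, was past 1.5-fold downward with si1, at 54.1 FPKM with si4, 79.7 with si5 and 46.5 with si1, beside 87.9 in the control. The 20 genes of G2 and M phase had medians of 0.091 and 0.0050. Of 13 expressed p53 targets, BTG2 and TP53INP1 were past 1.5-fold downward with the ZSCAN5A siRNAs, at log2 ratios of -0.60 and -0.70, and the list had medians of -0.021 and -0.14. The part of the cell cycle in the values of the 31 genes was not tested.

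**Figure D5:**
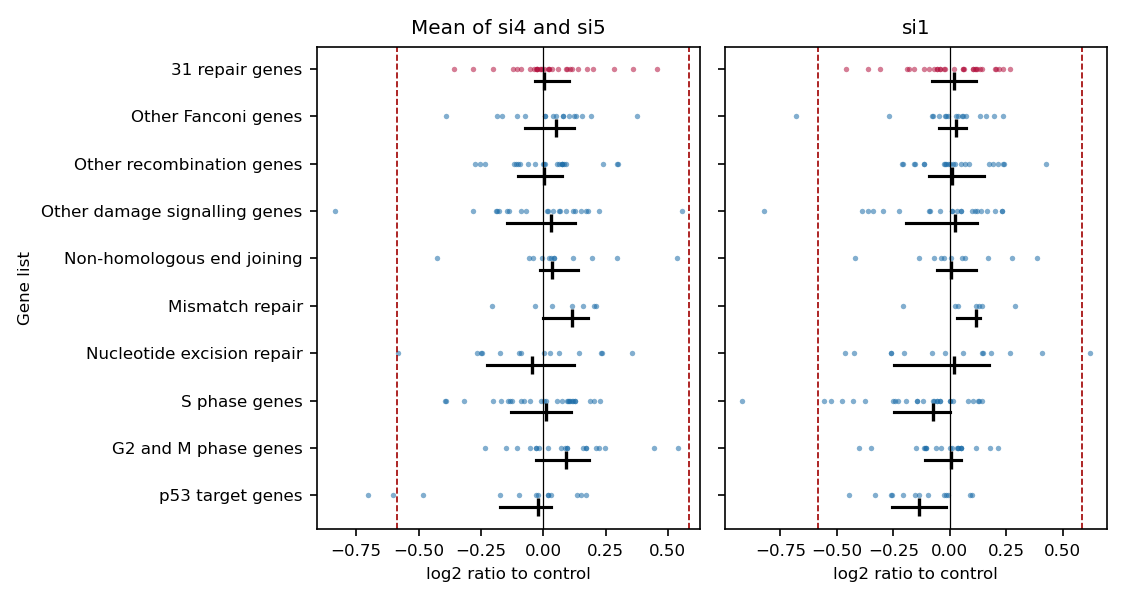
Log2 ratio to the control of every tested gene in the 31 repair genes and in 9 other lists, as points, with the median as a tick and the quartiles as a bar under each, for the ZSCAN5A siRNAs on the left and si1 on the right. Dashed lines mark 1.5-fold; MDC1 lies past them on the left side in both panels, and no repair gene does.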

How the data were processed

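HEK-293 RNA was measured in 4 mRNA libraries, 1 per siRNA. The labels and the paper's methods name different stranded mRNA kits. The authors ran TopHat and Cufflinks on the reads and deposited an FPKM value per gene and library, with hg19 loci. The submitters' processing notes list CASAVA 1.8.2, Trimmomatic 0.30, TopHat2 2.1.0 and Cufflinks 2.2.1, and the gene annotation is not given in the sources used here. Listed starts count from 0, and 1 was added to them. The table holds 0 further columns of per-sample values, and read counts were not used here.

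Ratios were taken on FPKM without a pseudocount, for genes at 1 FPKM or more in a library of the comparison and above 0 on both sides, with a limit of 1.5-fold as in the paper's methods for ZSCAN5B, and with si4 and si5 averaged for ZSCAN5A. Adjusted p-values came from limma 3.58.1 in R 4.3.3 on log2(FPKM + 1), as an alternative. The latter scale understates differences of low genes.

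Fragments were estimated from steps between low FPKM values. Of 1745 genes above 0 and under 0.1 FPKM in every library, 69.9% had values that stood as whole numbers of up to 40 to each other, within a tolerance of 0.05%. The 1033 of these with a known transcript length gave the depths. Lengths, GC content and 3′ UTRs came from canonical transcripts of the GENCODE annotation lifted to GRCh37, matched for 94.9% of expressed rows. Length and GC were corrected by taking off the median of 5 GC groups within each of 10 length groups. All 31 members are named, with the ZSCAN5 genes. One other recombination gene is not reported here. Genes of other lists are named if past 1.5-fold, and for the first 3 lists the 2 highest and 2 lowest in each comparison. NPAT, ANKRD49, MOSPD2 and DCTN5 were chosen after their values were seen. The members and lists were chosen with earlier results of these data known. Python 3.11.15, pandas 2.3.3, NumPy 2.4.6 and SciPy 1.17.1 were used, with matplotlib 3.10.9 for the plots, and the scripts were tested on simulated data.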

Additional observations from a re-analysis of the deposited data

How the results depend on the processing

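Of 12 alternatives, 1 moved a count of repair genes. At a limit of 25% above or 20% below the control, 3 of the 31 genes were past it with the ZSCAN5A siRNAs and 2 with si1. The counts stayed at 0 under median-ratio and upper-quartile scaling, pseudocounts of 0.1 and 1, no expression limit or one of 5 FPKM, a 2-fold limit, the length and GC correction, limma, and with si4 or si5 alone. Of these settings, the 2-fold limit, both pseudocounts and both changes of the expression limit could not have raised a count of 0, so they were no check on it. limma called only 10 of 13078 genes in each comparison, so its count of 0 was little check either. The median log2 ratio of the ZSCAN5A siRNAs was 0.041 with si5 alone, -0.019 with si4 alone and -0.0078 under upper-quartile scaling, so its sign changes with the siRNA read and with the scaling. That of si1 ranged from -0.019 at the 5 FPKM limit to 0.023 under median-ratio scaling. No member whose log2 ratio exceeded 0.1 in size changed sign under either scaling, either pseudocount or either siRNA alone. With the length and GC correction 2 of 13 did with the ZSCAN5A siRNAs, FANCA and FANCC, and 0 of 19 with si1. A pseudocount of 1 moved the log2 ratio of a member by up to 0.12, and either scaling by up to 0.016. Depth limits FANCB, FANCM, FANCF and SLX4 most, with the fewest fragments. No paired analysis was possible because each siRNA and the control have 1 library.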
